A study of Mus musculus with 32 samples.

Results

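The sirtuins are the 7 genes Sirt1 to Sirt7, examined here in whole kidney of mice that lack Col4a3, a model of Alport-type chronic kidney disease. All 7 were taken by name, each from the 1 array feature that names that gene alone, out of 22180 named genes on the array. Male mice of strain 129 were studied in 4 groups of 8: Col4a3+/+ wild-type (WT) and Col4a3–/– knockout (KO) mice at 4 weeks of age, and the same genotypes at 7 weeks, the controls being littermates. Each of the 32 mice gave 1 Affymetrix Mouse Gene 2.0 ST array, and the values are gene-level log2 signals after robust multi-array averaging (RMA). The labels name no tissue-restricted driver for the loss of Col4a3 and do not say which part of the gene is missing.

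Sirtuins are enzymes that remove acetyl and other acyl groups from lysines and consume NAD+ with each reaction, which ties their activity to the supply of that cofactor. SIRT3, SIRT4 and SIRT5 work in mitochondria, SIRT1, SIRT6 and SIRT7 mainly in the nucleus, and SIRT2 mainly in the cytosol. In the kidney they are best known from the proximal tubule, whose cells are rich in mitochondria and depend on fatty acid oxidation. The series title names lysine deacetylases, the wider class of enzymes to which the sirtuins belong.

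The start regions of 4 sirtuins are shown, Sirt3 and Sirt7 having the largest genotype differences at 7 weeks and Sirt1 and Sirt2 none past the threshold. For these 4 the RefSeq promoter table holds the outermost start of the gene, which is used here, and for Sirt3 it also lists 1 inner start. Each run is the 100 bases before that start, 5′ to 3′ on the strand of the gene, build GRCm38.p6, and capitals mark matches to any of the motifs named after it.
Sirt3, chr7:140882310-140882409, minus strand: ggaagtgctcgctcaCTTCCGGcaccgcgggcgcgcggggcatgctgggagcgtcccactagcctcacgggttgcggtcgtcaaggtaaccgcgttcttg
Sirt7, chr11:120625015-120625114, minus strand: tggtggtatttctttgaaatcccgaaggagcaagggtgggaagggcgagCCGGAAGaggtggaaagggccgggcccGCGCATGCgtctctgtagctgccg
Sirt1, chr10:63339036-63339135, minus strand: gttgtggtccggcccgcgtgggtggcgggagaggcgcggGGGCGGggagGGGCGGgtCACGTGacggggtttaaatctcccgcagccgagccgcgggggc
Sirt2, chr7:28766652-28766751, plus strand: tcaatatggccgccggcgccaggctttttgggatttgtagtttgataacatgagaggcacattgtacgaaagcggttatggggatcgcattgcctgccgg
The patterns were searched on both strands, and no match in these runs overlapped another. The ETS core CCGGAAG was found in Sirt3 and in Sirt7, and in 4.52% of all 32851 windows of this length. The NRF-1 core GCGCATGC was found in Sirt7 and in 1.49% of all windows. The E-box CACGTG was found in Sirt1 and in 3.17% of windows, and the GC box GGGCGG at 2 places in Sirt1 and in 24.7% of windows. The CCAAT box CCAAT, in 18.9% of windows, was in none of these 4 runs, and Sirt2 held none of the patterns. The ETS core was also found at 1 of 2 listed starts of Sirt6, the member that rose, and not at the inner start of Sirt3, which held 3 GC boxes.

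Arrays within a group correlated at 0.965 to 0.995. KO mice 4 and 5 at 4 weeks had the lowest quality weights, 0.337 and 0.388. Col4a3 itself was lower in KO mice, with means of 7.91 against 8.90 at 4 weeks and 7.27 against 8.92 at 7 weeks, and no KO mouse reached a WT mouse of its age. Kidney markers were present in every group: the mean log2 signal of 10 proximal tubule markers lay between 11.6 and 12.6 over all mice. Markers of macrophages, fibroblasts and T cells rose in KO mice at 7 weeks, in 9 of 9, 7 of 7 and 5 of 6 genes. Over all genes 15.6% were higher and 16.7% lower at that age (adjusted p below 0.05 in limma). The macrophage mean was 6.78 to 7.06 in WT and 8.46 to 9.77 in KO mice of that age, and the fibroblast mean 8.21 to 8.52 and 9.43 to 10.2. Of 8 markers of the loop of Henle and distal tubule 4 fell, and of 5 podocyte markers none passed. Of 5 skeletal muscle and 3 adipocyte markers 1 each fell, counts too small to set apart from the share over all genes. In whole tissue fewer cells of a type and less RNA per cell cannot be told apart. Nothing in the labels says whether mice of a group came from separate litters. The p values set each difference against the spread between these mice, pooled over the 4 groups and moderated over genes. Differences below are limma estimates on the log2 scale, ± standard error, from groups of n = 8, and adjusted p values are over all 22180 genes.

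No sirtuin passed the test between genotypes at 4 weeks. In limma 0 of 7 passed an adjusted p of 0.05, where 0.0406% of all genes did (0.0316% higher and 0.00902% lower), and 1 of 7, Sirt1, had an unadjusted p below 0.05. The groups overlapped for all 7, whereas 0.0271% of all genes were higher and 0.0225% lower without overlap. Differences ran from -0.16 ± 0.09 for Sirt4 (adjusted p = 0.601) to 0.12 ± 0.09 for Sirt6 (adjusted p = 0.709). Sirt1 stood at -0.11 ± 0.05 (adjusted p = 0.511), with 2 of 8 KO mice below all WT mice. For Sirt3 the 95% limits were -0.36 and 0.11, and for Sirt7 -0.03 and 0.23. The median of the 7 differences was -0.09, against -0.01 over all genes.

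At 7 weeks 5 of the 7 sirtuins differed in KO kidney. All 3 mitochondrial members and nuclear Sirt7 were lower, and nuclear Sirt6 was higher. In limma 32.3% of all genes passed at this age, 15.6% higher and 16.7% lower, so that calls are common in this comparison. The median of the 7 differences was -0.25, and -0.06 over all genes. With the median over named genes set equal on every array, a scaling chosen after the data were seen, the split was 0 higher and 6 lower. Over all genes that scaling gave 2568 higher and 8324 lower, against 3469 and 3698 as deposited. That scaling removes a difference of 0.114 between the genotypes' medians, whereas medians over all features differed by 0.013.

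**Figure D1:**
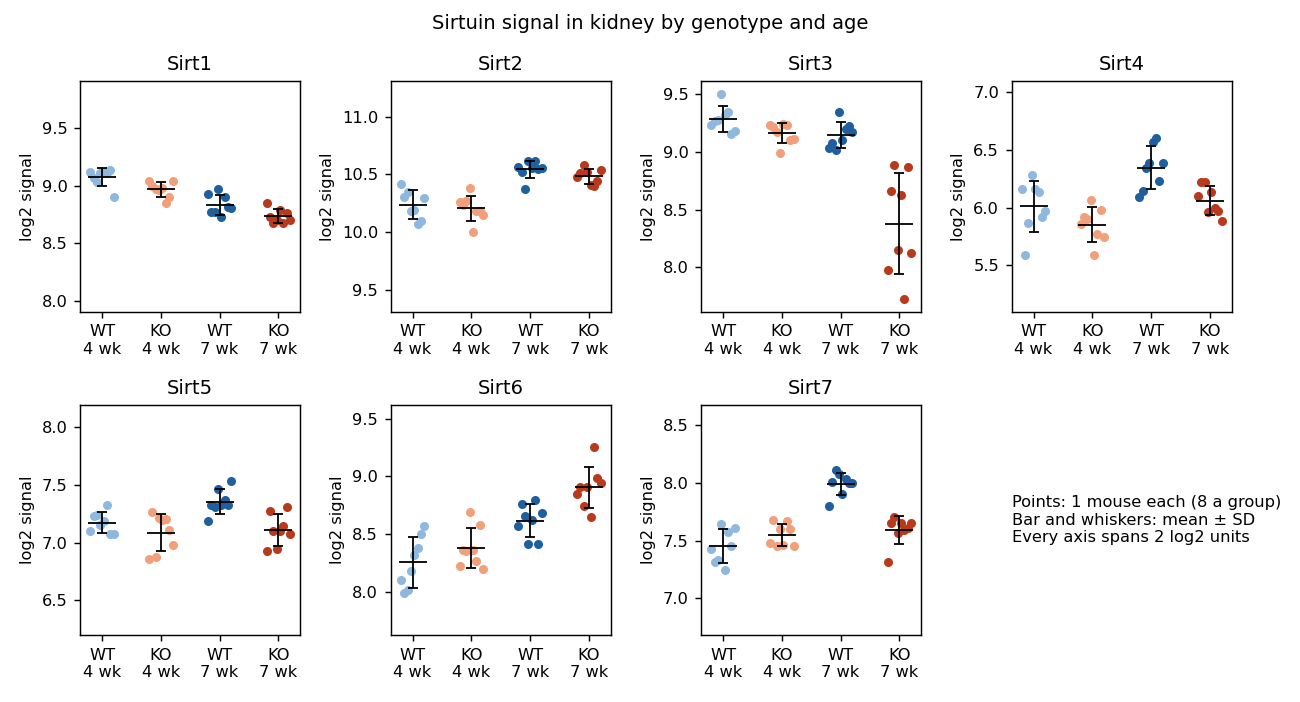
Log2 signal (y axis, each spanning the same width of 2 log2 units) of the 7 sirtuins in WT and KO mice at 4 and 7 weeks (x axis), with 1 point per mouse and the mean ± SD of 8 mice. Sirt3 spreads from 7.72 to 8.88 in 7-week KO mice, and Sirt7 is highest in 7-week WT mice.

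Sirt3, the main deacetylase of the mitochondrial matrix, had the largest difference of the family. Its log2 signal in WT mice at 7 weeks was 9.02 at the lowest, 9.14 at the median and 9.35 at the highest, and in KO mice 7.72, 8.39 and 8.88. The groups did not overlap, as for 5.42% of all genes in the lower and 7.62% in the higher direction. Sirt3 fell by 0.77 ± 0.12 (1.71-fold, adjusted p = 2.36e-06 in limma). At 4 weeks the WT mice ran from 9.15 to 9.51 with a median of 9.27, and the KO mice from 8.99 to 9.24 with a median of 9.20. These 4-week ranges overlapped. The genotype difference was larger at 7 than at 4 weeks by 0.65 ± 0.16 in the lower direction (interaction adjusted p = 0.00484), where 17.0% of all genes passed (9.80% higher and 7.24% lower).

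The 8 KO mice at 7 weeks differed far more among themselves in Sirt3 than the other groups did. Their SD was 0.439, against 0.111 in WT mice of that age, and 0.110 and 0.089 in WT and KO mice at 4 weeks. The limma standard errors, limits and p values of Sirt3 use 1 variance shared by all 4 groups. They are thus not the errors of the groups compared, and the spread of 7-week KO mice enters the 4-week and WT age comparisons too. Over 9 alternative settings of processing or model, the adjusted p of Sirt3 at 7 weeks ran from 1.92e-07 to 0.000438. KO mice 6, 1, 8 and 4 had signals of 7.72, 7.97, 8.12 and 8.15. KO mice 5, 2, 7 and 3 had signals of 8.63, 8.66, 8.87 and 8.88. Nothing in the labels separates these mice. The proximal tubule marker mean was 11.6, 11.9, 12.1 and 12.1 in KO mice 6, 1, 8 and 4, and 12.5, 12.3, 12.4 and 12.5 in KO mice 5, 2, 7 and 3. The macrophage marker mean was 9.77, 9.60, 9.54 and 9.62 in the former and 8.84, 8.79, 8.96 and 8.46 in the latter. The mice with the lowest Sirt3 thus had the lowest proximal tubule and highest macrophage marker means. Loop of Henle and distal tubule means were 10.13 to 10.49 in the former and 10.52 to 10.70 in the latter. Fibroblast means were 9.98 to 10.20 and 9.43 to 9.84, and T cell means 6.02 to 6.41 and 5.62 to 5.89. The first principal component over all genes (37.3% of the variance) was 56.4 to 62.7 and 24.5 to 36.7. Podocyte means overlapped. The part of any of these in the Sirt3 difference was not tested. Of the 10 proximal tubule markers 9 fell at 7 weeks and 1, the sulfate transporter Slc13a1, rose, where 16.7% of all genes were lower and 15.6% higher. After quantile normalization between arrays 7 of these markers fell and 1 rose, where 3652 of all 22180 genes were lower and 3303 higher.

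**Figure D2:**
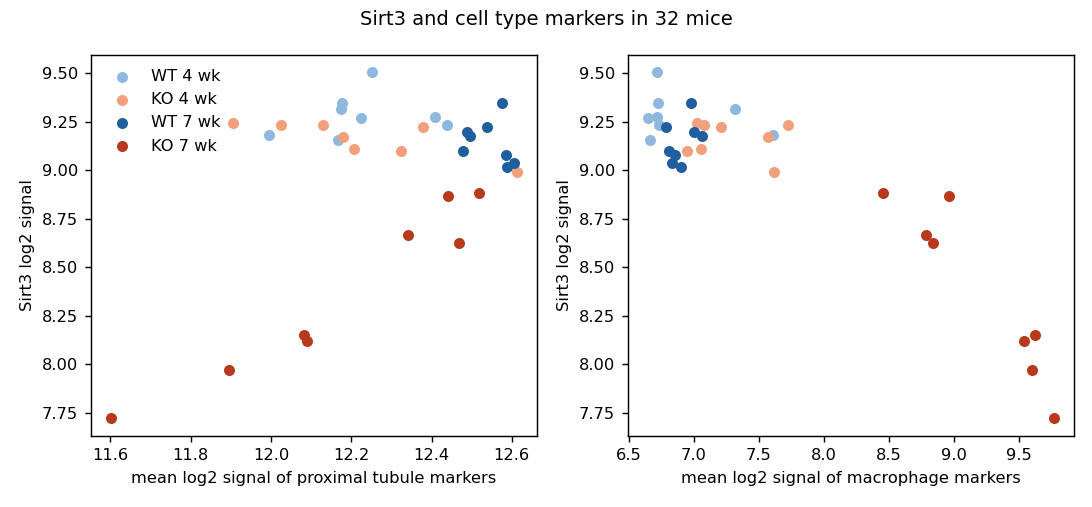
Sirt3 log2 signal (y axes) against the mean log2 signal of 10 proximal tubule markers (left x axis) and of 9 macrophage markers (right x axis) in 32 mice, coloured by group. The 7-week KO mice extend from 8.88 down to 7.72 for Sirt3 as the proximal tubule mean runs from 12.5 to 11.6, and the other 3 groups stay at 8.99 or above.

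The genes most like Sirt3 were Acat1, a mitochondrial thiolase of ketone and isoleucine metabolism, and Egf, a growth factor made in the distal nephron. After the group means were subtracted, Sirt3 correlated with Acat1 at 0.90 and with Egf at 0.90 over the 32 mice, the highest values among 17274 genes searched, and at 0.96 and 0.96 before. The genes were read on the same arrays. After the subtraction most of the spread in Sirt3 lay in the 7-week KO mice (SD 0.439, against at most 0.111 in the other groups). The correlations thus rest largely on these mice, which also have the spread in marker means given above. Acat1 fell by 0.96 ± 0.15 at 7 weeks (adjusted p = 7.33e-06) and Egf fell by 2.04 ± 0.30 (adjusted p = 1.66e-06). Psmd13, a proteasome lid subunit, starts head to head with Sirt3 at a distance of 85 bases, so the Sirt3 run shown above reaches past its start. Psmd13 differed by -0.01 ± 0.08 at 7 weeks (95% limits -0.18 and 0.15, adjusted p = 0.920).

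Sirt4, a mitochondrial lipoamidase and ADP-ribosyltransferase, gave a dimmer signal. WT mice at 7 weeks ran from 6.09 through a median of 6.37 to 6.61, and KO mice from 5.88 through 6.05 to 6.23. The ranges overlapped, with 4 of 8 KO mice below every WT mouse. Sirt4 fell by 0.28 ± 0.09 (1.22-fold, adjusted p = 0.0120 in limma). Sirt5 removes succinyl, malonyl and glutaryl groups, and its WT mice ran from 7.18 through 7.33 to 7.53 against 6.93, 7.10 and 7.31 in KO mice. It fell by 0.25 ± 0.07 (1.19-fold, adjusted p = 0.00496), with 6 of 8 KO mice below every WT mouse. For neither gene did the genotype difference change with age past the threshold (interaction -0.13 ± 0.12, adjusted p = 0.553, and -0.16 ± 0.10, adjusted p = 0.284). The part of the cell type markers in the differences of Sirt4, Sirt5 and Sirt7 was not tested either.

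Sirt7, which acts at ribosomal DNA and on chromatin, was lower in every KO mouse than in any WT mouse at 7 weeks. The same held for 5.42% of all genes, and 7.62% were higher without overlap. WT mice ran from 7.80 through a median of 8.00 to 8.11, and KO mice from 7.32 through 7.63 to 7.70. Sirt7 fell by 0.40 ± 0.06 (1.32-fold, adjusted p = 8.48e-06 in limma). At 4 weeks WT mice ran from 7.25 through 7.44 to 7.64 and KO mice from 7.46 through 7.54 to 7.67, and the ranges overlapped. The change of the genotype difference with age was -0.50 ± 0.09 (interaction adjusted p = 0.000213). The spread of Sirt7 in 7-week KO mice was 0.120, near that of WT mice at 0.099, unlike the spread of Sirt3. The genes most like Sirt7 within groups were the tRNA phosphotransferase Trpt1 (0.76) and the peroxisomal import gene Pex14 (0.72). Both fell in KO mice at 7 weeks, Trpt1 by 0.29 ± 0.08 (adjusted p = 0.00406) and Pex14 by 0.33 ± 0.09 (adjusted p = 0.00440).

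Sirt6, a chromatin deacylase known for repressing glycolytic genes and for DNA repair, was the member that rose. WT mice at 7 weeks ran from 8.41 through a median of 8.64 to 8.79, and KO mice from 8.65 through 8.91 to 9.25. Of 8 KO mice 6 lay above every WT mouse. Sirt6 rose by 0.29 ± 0.09 (1.22-fold, adjusted p = 0.0127 in limma). Centred on named genes, the value was 0.18 and did not pass (adjusted p = 0.0897). Its nearest genes within groups were the exchange factor Arhgef40 (0.76) and Tgfb1i1, a focal adhesion protein of mesenchymal cells (0.76), which rose by 0.40 ± 0.10 and 0.82 ± 0.13 (adjusted p = 0.00203 and 4.13e-06). Fibroblast markers rose as well, and their part in the Sirt6 difference was not tested. Ankrd24, which starts head to head with Sirt6 at 974 bases, fell by 0.33 ± 0.07 (adjusted p = 0.000430).

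Sirt1 and Sirt2 did not pass between genotypes at 7 weeks. Sirt1, a nuclear deacetylase of transcription factors, ran from 8.73 through a median of 8.81 to 8.97 in WT mice and from 8.68 through 8.72 to 8.85 in KO mice. The difference was -0.10 ± 0.05 (adjusted p = 0.119), with 95% limits of -0.20 and -0.00. Sirt2, a cytosolic deacetylase of tubulin and metabolic enzymes, ran from 10.38 through 10.56 to 10.62 in WT mice and from 10.40 through 10.49 to 10.58 in KO mice. The difference was -0.06 ± 0.06 (adjusted p = 0.451), with limits of -0.18 and 0.06. Nfkbib, an inhibitor of NF-kappa-B that starts head to head with Sirt2 at 108 bases, stood at 0.01 ± 0.06 (adjusted p = 0.896). Centred on named genes, Sirt1 stood at -0.21 (adjusted p = 0.00104) and Sirt2 at -0.17 (adjusted p = 0.0134), and both passed. Sirt1 also passed after quantile normalization between arrays (-0.13, adjusted p = 0.0336).

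**Figure D3:**
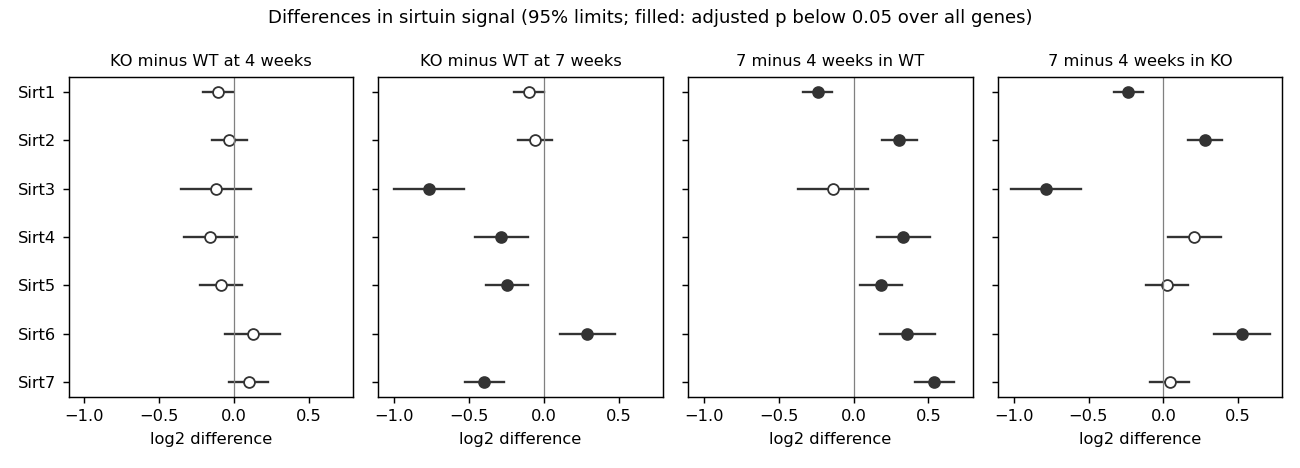
Log2 differences (x axes) of the 7 sirtuins (y axis) with 95% limits in 4 comparisons, filled where the limma adjusted p over all genes is below 0.05. At 4 weeks 0 of 7 are filled and at 7 weeks 5 of 7, with Sirt3 at -0.77 and Sirt7 at -0.40.

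In WT mice the sirtuins shifted with age between 4 and 7 weeks, mostly upwards. In limma 5 of 7 rose and 1 fell, where 29.5% of all genes passed, 15.4% higher and 14.1% lower. Sirt7 rose the most, by 0.54 ± 0.06 (1.45-fold, adjusted p = 3.47e-07), and all 8 WT mice at 7 weeks lay above all 8 at 4 weeks, as for 7.38% of genes in that direction and 4.48% in the other. Sirt6 rose by 0.36 ± 0.09 (adjusted p = 0.00264), Sirt4 by 0.33 ± 0.09 (adjusted p = 0.00388) and Sirt2 by 0.31 ± 0.06 (adjusted p = 0.000107). Sirt5 rose by 0.18 ± 0.07 (adjusted p = 0.0415). That Sirt5 call was lost without any 1 of 11 of the 16 mice: WT mice 1, 4, 5, 7 or 8 at 4 weeks and 2, 4, 5, 6, 7 or 8 at 7 weeks. The adjusted p then ran up to 0.0957. Sirt1 fell by 0.24 ± 0.05 (1.18-fold, adjusted p = 0.000291), and Sirt3 stood at -0.14 ± 0.12 (adjusted p = 0.421).

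In KO mice over the same ages 2 sirtuins rose and 2 fell, where 42.6% of all genes passed, 21.4% higher and 21.3% lower. Sirt1 fell by 0.23 ± 0.05 (adjusted p = 0.000188) and Sirt2 rose by 0.28 ± 0.06 (adjusted p = 0.000159), each near its WT change. Their differences in age change between the genotypes were 0.01 ± 0.07 (95% limits -0.13 and 0.15) and -0.03 ± 0.08 (limits -0.19 and 0.14). Sirt6 rose by 0.53 ± 0.09 (1.44-fold, adjusted p = 1.64e-05), and its interaction did not pass (0.17 ± 0.13, adjusted p = 0.423). Sirt3 fell by 0.79 ± 0.12 (1.72-fold, adjusted p = 1.34e-06), with all 8 KO mice at 7 weeks below all 8 at 4 weeks, as for 2.69% of genes in that direction and 6.89% in the other. Sirt1 and Sirt2 also did not overlap between the ages. Sirt7 stood at 0.04 ± 0.06 (95% limits -0.09 and 0.17, adjusted p = 0.622). The WT rise of Sirt7 and its KO value differed by the interaction given above, which shares the 7-week WT mice with the genotype comparison. Sirt5 stood at 0.02 ± 0.07 (adjusted p = 0.814) and Sirt4 at 0.21 ± 0.09 (adjusted p = 0.0561). Sirt4 passed in KO mice over age without KO mouse 4 or 7 at 4 weeks or KO mouse 8 at 7 weeks (adjusted p = 0.0291, 0.0479 and 0.0403).

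The order of the 4 group means differed between members. Sirt3 was lowest in 7-week KO mice (8.38), and the other groups followed at 9.15 in 7-week WT, 9.16 in 4-week KO and 9.28 in 4-week WT mice, whose ranges overlapped. Sirt7 was highest in 7-week WT mice (7.99), with 7.59 in 7-week KO, 7.55 in 4-week KO and 7.45 in 4-week WT mice, whose ranges overlapped. Sirt6 climbed from 8.25 in 4-week WT through 8.38 in 4-week KO and 8.61 in 7-week WT to 8.90 in 7-week KO mice. Sirt1 ran in the opposite order, from 9.07 and 8.97 at 4 weeks to 8.84 and 8.74 at 7 weeks, WT first. For Sirt2 both 7-week means, 10.54 in WT and 10.48 in KO, lay above both 4-week means, 10.24 and 10.21. After subtraction of group means the 21 pairs of sirtuins correlated over 32 mice from -0.43 for Sirt3 with Sirt6 to 0.41 for Sirt5 with Sirt7, as a description without a test.

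Among the genes that sirtuins act on in mitochondria, most were lower in KO mice at 7 weeks, like the mitochondrial sirtuins themselves. Of 22 measured genes of known mitochondrial substrates 16 fell and 1, the phosphatase Pdp1, rose, where 16.7% of all genes were lower and 15.6% higher. The median difference was -0.37, and -0.06 over all genes. The SIRT4 targets Mccc1, a carboxylase of leucine breakdown, and Mlycd, malonyl-CoA decarboxylase, fell by 0.94 ± 0.10 and 0.65 ± 0.08 (adjusted p = 1.05e-08 and 1.28e-07). The serine enzyme Shmt2 fell by 0.94 ± 0.16 (adjusted p = 1.51e-05). Sod2, the matrix superoxide dismutase that SIRT3 activates, fell by 0.38 ± 0.06 (adjusted p = 1.63e-05). Mdh2 (-0.14 ± 0.08) and Hadha (-0.13 ± 0.07) did not pass. At 4 weeks 0 of 22 passed. Centred on named genes, 0 rose and 19 fell at 7 weeks, where 2568 of all 22180 genes were higher and 8324 lower. The list median was then -0.48, and -0.18 over all genes. The proximal tubule markers moved the same way, and their part was not tested.

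Genes that supply NAD+ were lower at 7 weeks in 11 of 21 cases and higher in 1, Kynu, with a median of -0.23. Over all genes 16.7% were lower and 15.6% higher, with a median of -0.06. Of 8 genes of the route from tryptophan 4 fell, Ido2 by 1.43 ± 0.19, Haao by 1.21 ± 0.18, Afmid by 1.20 ± 0.17 and Kmo by 0.73 ± 0.12 (adjusted p = 3.3e-07, 1.7e-06, 5.94e-07 and 1.16e-05). Kynu, which rose by 0.73 ± 0.27 (adjusted p = 0.0368), belongs to the same route, as do Tdo2 (-0.14 ± 0.08), Ido1 (-0.02 ± 0.11) and Qprt (-0.03 ± 0.07), which did not pass. The list also holds Acmsd, which draws an intermediate away from NAD+ and fell by 0.86 ± 0.19 (adjusted p = 0.000662). Nampt, which limits salvage from nicotinamide, fell by 0.49 ± 0.11 (adjusted p = 0.000547) and is named here after its value was seen. Centred on named genes, 0 rose and 13 fell, where 2568 of all 22180 genes were higher and 8324 lower. The list median was then -0.35, and -0.18 over all genes. Nt5e (0.29 ± 0.15) and Nmrk1 (-0.21 ± 0.14) did not pass. The mean of the list was 7.51 to 7.74 in KO mice 6, 1, 4 and 8 and 7.87 to 8.04 in KO mice 7, 2, 5 and 3. The former are also the 4 with the lowest proximal tubule marker means, whose 10 genes had a median of -0.46, and the part of these in the NAD+ supply result was not tested.

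Genes that consume or divert NAD+ rose in 6 of 14 cases and fell in 2, where 15.6% of all genes were higher and 16.7% lower. Their median was 0.09, and -0.06 over all genes. With arrays centred on named genes the list median was -0.02, and -0.18 over all genes. The counts were then 5 higher and 4 lower, where 2568 of all 22180 genes were higher and 8324 lower. The ADP-ribosyltransferases Parp14 and Parp12 rose by 1.59 ± 0.19 and 0.94 ± 0.15 (adjusted p = 7.46e-08 and 7.5e-06). Nnmt, which methylates nicotinamide, rose by 0.91 ± 0.13 (adjusted p = 1.07e-06). The kinase Nadk2, which makes mitochondrial NADP+, fell by 0.73 ± 0.10 (adjusted p = 4.21e-07), whereas Parp3 (-0.17 ± 0.09) and Sarm1 (-0.16 ± 0.08) did not pass. At 4 weeks no gene of either NAD+ list passed. Macrophage markers (9 of 9 higher, median 2.58) and T cell markers (5 of 6 higher, median 0.61) rose in the same 7-week comparison, and their part in the rise of these genes was not tested.

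**Figure D4:**
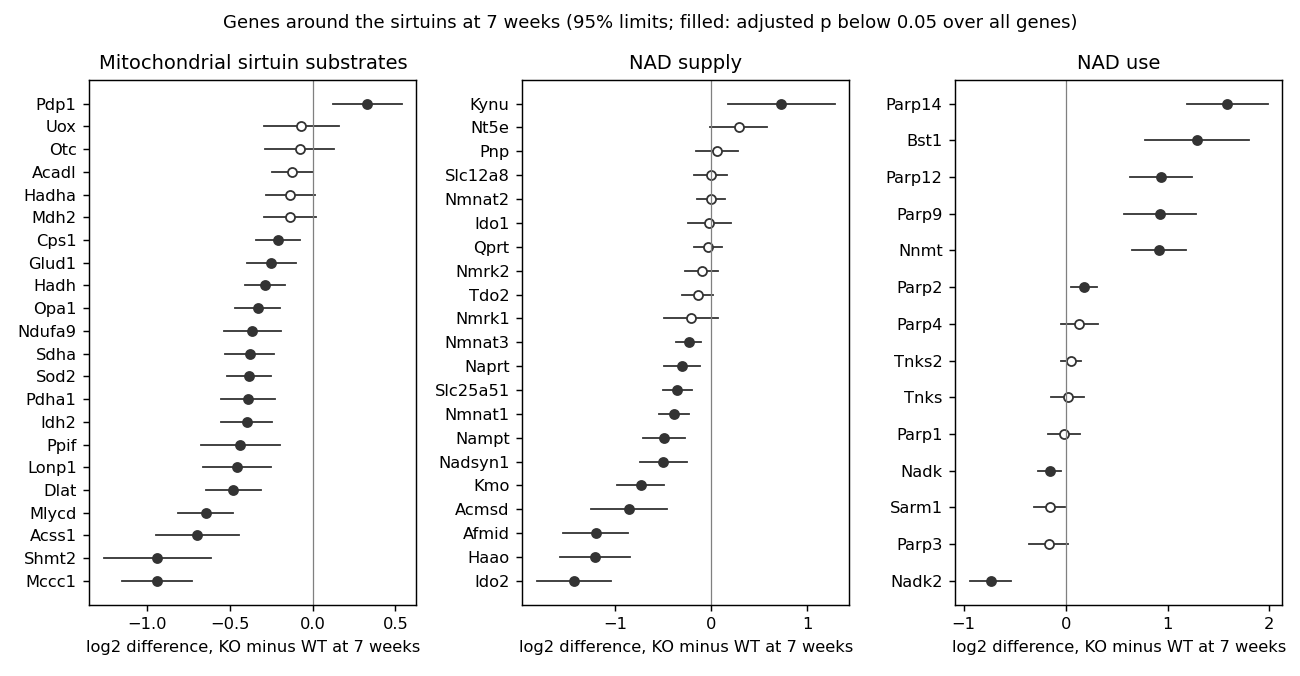
Log2 differences between KO and WT mice at 7 weeks (x axes) with 95% limits for genes of mitochondrial sirtuin substrates, NAD supply and NAD use, filled where the limma adjusted p over all genes is below 0.05. Most substrate and supply genes lie below 0, and Parp14 is at 1.59.

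Among 7 regulators of sirtuins, 2 fell and 1 rose at 7 weeks, where 16.7% of all genes were lower and 15.6% higher. The median was -0.04, near that of all genes (-0.06), so the count gives no result about the list. The coactivator Ppargc1a and the nuclear receptor Esrra, which together induce Sirt3, fell by 0.42 ± 0.07 and 0.41 ± 0.08 (adjusted p = 1.7e-05 and 5.96e-05). Usp22, a deubiquitinase that stabilizes SIRT1, rose by 0.46 ± 0.11 (adjusted p = 0.00191). Elavl1 (0.08 ± 0.06) and Rps19bp1 (-0.05 ± 0.07) did not pass, the former turning to a negative value with arrays centred on named genes. Of 21 nuclear and cytosolic substrates 5 rose and 6 fell, where 15.6% of all genes were higher and 16.7% lower. The median of these substrates was -0.14, and -0.06 over all genes. With arrays centred on named genes 3 rose and 10 fell, where 2568 of all 22180 genes were higher and 8324 lower. Stat3 and the spindle checkpoint kinase Bub1b rose by 1.22 ± 0.13 and 1.03 ± 0.15 (adjusted p = 6.3e-09 and 1.19e-06), and Acss2 and the bile acid receptor Nr1h4 fell by 0.76 ± 0.11 and 0.56 ± 0.11 (adjusted p = 1.8e-06 and 9.07e-05). Arntl (0.43 ± 0.23) and Foxo3 (-0.31 ± 0.14) did not pass.

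Of 9 glycolytic genes known to be repressed by SIRT6, 1 rose and 2 fell at 7 weeks. The counts were 2 and 2 after quantile normalization, and 1 and 5 with arrays centred on named genes. With that centring 2568 of all 22180 genes were higher and 8324 lower. As deposited, 15.6% of all genes were higher and 16.7% lower, near the shares of this list, so the counts give no result about it. Pdk4, a pyruvate dehydrogenase kinase, rose by 1.13 ± 0.27 (adjusted p = 0.00125), while the phosphofructokinase Pfkm fell by 0.63 ± 0.09 (adjusted p = 5.05e-07) and Pdk1 by 0.24 ± 0.08 (adjusted p = 0.0281). Aldoc (-0.26 ± 0.15) and Ldha (0.16 ± 0.12) did not pass. Of 14 genes of ribosomal DNA transcription, where SIRT7 acts, 1 rose and 1 fell, or 1 and 4 with arrays centred on named genes. Neither count exceeds the share over all genes, as deposited or with that centring, so the counts give no result about this list. The list also holds Gabpa and Gabpb1, subunits of an ETS factor of nuclear genes for mitochondrial proteins that SIRT7 deacetylates, which are not part of the ribosomal DNA machinery. The nucleolar protein Npm1 rose by 0.58 ± 0.13 (adjusted p = 0.000429) and Gabpa fell by 0.16 ± 0.06 (adjusted p = 0.0207), so the 1 lower call as deposited lies outside that machinery. Taf1b (0.20 ± 0.08) and Polr1e (-0.12 ± 0.07) did not pass. The list median was 0.02, turning to -0.03 after quantile normalization and to -0.10 with arrays centred on named genes. Medians over all genes were -0.06, -0.05 and -0.18 in the same order.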

How the data were processed

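Per the labels, the authors deposited log2 signals per gene, made by RMA in Affymetrix Expression Console (its version is not stated there). All 32 columns were matched to a mouse by accession. Of 41345 features, 23521 named 1 gene symbol, 1814 several and 16010 none in the array annotation. For the 1082 genes with several features the one with the highest mean was kept, which left 22180 genes, each sirtuin having 1 feature. A further feature naming Sirt6 with other genes was left out. Of the genes 21994 were matched to RefSeq by Entrez number.

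A linear model with 1 mean per group was fitted in limma 3.58.1 (R 4.3.3, data.table package 1.17.8), with 28 residual degrees of freedom, untrended moderated variances and Benjamini-Hochberg adjustment over all genes. It was tested on simulated data. The 7 members, the gene lists (15 lists, 161 of 172 genes measured) the neighbouring genes and the tests were chosen with earlier results of these data known. Named from each pathway list were at most 4 genes past the threshold at 7 weeks, those of smallest p, and up to 2 with the largest difference among the rest, and for each sirtuin the 2 genes most correlated within groups. Sequences are from RefSeq, GRCm38.p6, and all 7 sirtuins matched. Figures used Python 3.11.15 and matplotlib 3.10.9. The number of arrays limits the precision.

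Replicate numbers were checked for pairing, and no pairing of the mice was seen.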

Additional observations from a re-analysis of the deposited data

Results flagged for a closer look

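The genotype difference changed between ages for 2 sirtuins in limma's interaction test: Sirt3 at -0.65 (adjusted p = 0.00484) and Sirt7 at -0.50 (adjusted p = 0.000213).

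In 3 of 28 sirtuin-by-group sets of 8 mice a single mouse stood apart by Dixon's test, which chance does in about 1 of 20 sets. Sirt1 was 8.91 in WT mouse 8 at 4 weeks, below the other WT mice of that age. The same mouse had the highest T cell marker mean of its group (6.03, against 5.05 to 5.30 in the others), the highest macrophage mean (7.61) and NAD use mean (8.23), and the lowest proximal tubule mean (12.0), whose part in its Sirt1 value was not tested. Without this mouse the Sirt1 difference at 4 weeks was -0.13 (adjusted p = 0.290) and did not pass. Sirt2 was 10.38 in WT mouse 3 at 7 weeks, below the others of its group. Sirt7 was 7.32 in KO mouse 1 at 7 weeks, and without this mouse the Sirt7 difference of that age was -0.36 (adjusted p = 3.12e-05).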

How the results depend on the processing

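The number of sirtuins past the threshold was 0 at 4 weeks under every alternative run. At 7 weeks it was 5, or 6 after quantile normalization or centring on named genes, and 5 without any single mouse. For the change with age of the genotype difference it was 2 throughout. In WT mice over age it was 6, and 5 to 6 with 1 mouse left out. In KO mice over age it was 4, and 4 to 5 with 1 mouse left out, and 5 after centring on all features, quantile normalization, a filter on the dimmest genes (lowest 0.25 by mean) or fitting only the groups compared, each time with Sirt4 added. With the replicate number as a block the counts were 0, 5, 2, 6 and 4, as without the replicate block. Same-numbered mice correlated from -0.32 to 0.29 in their deviations at 4 weeks, and over 0.1 in 2 of 8 pairs. No pairing by number was seen, and such correlations cannot exclude a weak effect of shared litter or handling. Over all genes, 9 passed at 4 weeks, against 1 with only the groups compared, 5 with array weights, 1 without the 2 arrays of lowest weight, and 3 to 24 with 1 mouse left out. At 7 weeks 7167 passed, against 10892 when centred on named genes, 2568 of them higher and 8324 lower. Using the mean of a gene's features cannot change sirtuin values, since each has 1. Signal over background was not analysed here, so how far it limits the dim Sirt4 is not known.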

Other observations

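For the 4 sirtuins whose nearest genes are not given above, the highest correlations after subtraction of group means were lower than for Sirt3 (32 mice, 17274 genes searched, a description without a test). Sirt1 was nearest to Lin9, a cell cycle regulator (0.65), and to the repair nuclease Ercc5 (0.64). Sirt2 was nearest to the complement genes C2 (0.70) and Cfb (0.69). Sirt4 was nearest to Wdr13 (0.72) and the heparan sulfate sulfotransferase Hs6st1 (0.71), and Sirt5 to Igsf3 (0.69) and the transcription factor Deaf1 (0.65).

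Nfkbib, which starts head to head with Sirt2, rose between 4 and 7 weeks by 0.48 ± 0.06 in WT mice and by 0.41 ± 0.06 in KO mice (limma adjusted p = 8.47e-07 and 1.58e-06), where Sirt2 rose as well. Psmd13, head to head with Sirt3, fell between the ages in KO mice by 0.27 ± 0.08 (adjusted p = 0.00656), against 0.79 for Sirt3. In WT mice Psmd13 stood at -0.20 ± 0.08 and did not pass (adjusted p = 0.0587). Its age change did not differ between the genotypes past the threshold (interaction -0.07 ± 0.11, adjusted p = 0.739).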
